A study of Homo sapiens with 8 samples.

Results

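The side population (SP) of the lung cancer lines A549 and H460 was set against the main population (MP) of the same line. Both lines carry mutated K-Ras. Each line gave 1 SP array and 1 MP array, so the comparison holds 4 arrays in 2 pairs. Genes were taken from the deposited values where the brightest probe set of the gene had a mean log2 signal of at least 8 over these 4 arrays, which 9142 of 19775 genes did. Of the 9142 genes, 5638 had the same direction of SP over MP in both lines, with 2451 higher (26.8%) and 3187 lower (34.9%) in SP. The others were 1981 genes higher in A549 SP and lower in H460 SP, 1515 genes lower in A549 SP and higher in H460 SP, and 8 genes with a ratio of exactly 0 in a line. The SP group holds live A549 and H460 cells sorted for loss of Hoechst dye, which binds DNA, and the MP group holds live cells of the same stained suspension that retained it. No drug, transgene or knockdown distinguishes the groups, and both were grown, stained and sorted alike. The series also holds SP and MP arrays of the EGFR mutant lines H1975 and H1650, 8 arrays in all. A line here is an established culture, and 1 array per population and line leaves the spread between sorts unmeasured. The p-values set the mean ratio of the 2 lines against the difference between their ratios, moderated across genes. Differences between lines, sorts and arrays cannot be told apart in that spread.

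A549 is a lung adenocarcinoma line and H460 a large cell lung carcinoma line, although the study counts H460 among its adenocarcinoma lines. Both keep the RAS pathway active through the mutated K-Ras protein. The side population assay reads dye export by ABC transporters, chiefly ABCG2, and is used to enrich cells with stem-like properties from tumours and tumour lines. Dividing cells pass through condensation of the chromosomes, attachment to the spindle and separation under a set of kinases that are made mainly before mitosis.

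ABCG2 was brighter in SP than in MP of each line, with a log2 signal of 12.22 in SP and 11.13 in MP of A549, and of 12.71 in SP and 12.35 in MP of H460. The log2 ratios of 1.08 and 0.36 gave a mean of 0.72 ± 0.51 (SD, n = 2 lines), which did not pass the test across genes (limma adjusted p = 0.207). The SP array of A549 lay below the MP array of H460, so the groups overlapped. Of 8 epithelial markers, the keratins KRT7, KRT8, KRT18 and KRT19 were at least 8. CDH1, which encodes E-cadherin, had 11.96 in SP and 12.37 in MP of A549 but 1.61 in SP and 0.63 in MP of H460. EPCAM had 10.22 in SP and 10.37 in MP of A549 but 5.97 in SP and 5.25 in MP of H460. CLDN4 and CLDN7 stayed under 8 on these arrays. Of 10 leukocyte markers 1 was at least 8 (CD14), of 12 fibroblast and endothelial markers 3 were (COL1A1, COL3A1 and LUM) and of 6 red cell and platelet markers 1 was (PF4). The difference of the 3' from the 5' control probe sets of ACTB was 0.52 in SP and 0.56 in MP of A549 and 0.65 in SP and 0.58 in MP of H460, on the log2 scale. The median log2 signal over all probe sets was 6.29 on the SP array and 6.14 on the MP array of A549, and 5.95 on the SP array and 5.92 on the MP array of H460. Setting all arrays to the same median moved the median log2 ratio of the 9142 genes to -0.17 in A549 and to -0.06 in H460, against -0.01 and -0.03 as deposited. Under that scaling 1617 genes were higher and 4601 lower in both lines, so the share of higher genes among those with 1 direction was 26.0%, against 43.5% as deposited.

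Large changes in both lines were few and were mostly increases in SP. A ratio of 2-fold or more with 1 direction was found in both lines for 43 genes, of which 39 were higher in SP (0.427% of 9142) and 4 were lower (0.0438%). Over all 12209 genes that entered the limma fit these shares were 0.491% and 0.106%. No gene was at least 2-fold changed in opposite directions. In A549 alone 152 genes were at least 2-fold higher and 55 lower in SP, and in H460 alone 92 were higher and 16 lower. Of the 152 genes higher in A549, 137 were also higher in H460, and of the 92 higher in H460, 82 were also higher in A549. Of the 55 genes lower in A549, 41 were also lower in H460, and of the 16 lower in H460, 10 were also lower in A549. Across the 9142 genes the log2 ratios of the lines correlated with r = 0.428, as a description over genes that share arrays and are not independent. At a limit of 1.5-fold 211 genes were higher and 25 lower in both lines, and at 3-fold 4 were higher and 0 lower. All of the 43 genes had a mean log2 signal under 11, with 22 of 1813 genes between 8 and 9, 13 of 2139 between 9 and 10 and 8 of 2130 between 10 and 11, against 0 of 3060 brighter genes. Both SP arrays lay above both MP arrays for 905 genes (9.9%) and below for 772 (8.44%), and 33 of the 39 higher and 1 of the 4 lower genes were among them. The rule compares SP with MP in these lines, so these counts describe the arrays and support nothing further.

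**Figure D1:**
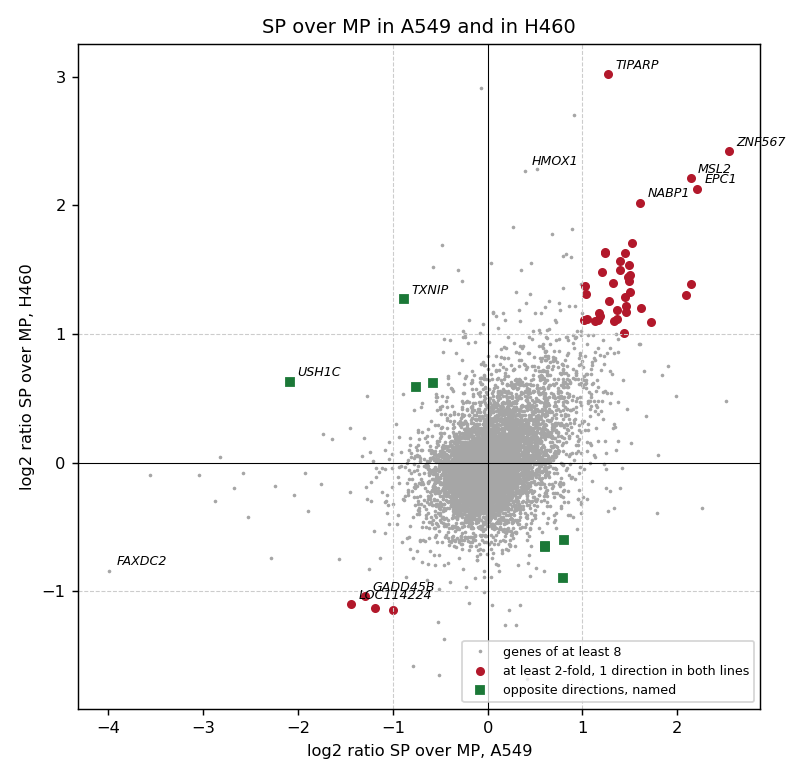
Each point is 1 gene with a mean log2 signal of at least 8, placed by its log2 ratio of SP over MP in A549 (horizontal axis) and in H460 (vertical axis), and dashed lines mark 2-fold. Red points are 42 of the 43 genes past 2-fold with a shared direction and green squares are the 8 named genes of opposite direction, and most red points lie at the upper right.

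In the fit across 12209 genes with cell line as a block, 3 genes were higher in SP at a Benjamini-Hochberg adjusted p under 0.05 (0.0246% of the genes fitted) and 0 were lower. They were EPC1, ZNF567 and KLHL15, and limma gave adjusted p-values of 0.0229, 0.0483 and 0.0483. At an unadjusted p under 0.05 from limma there were 852 higher and 413 lower genes of the 9142 (13.8% together). The count of 3 depended on the fit, since limma called 0 genes without the line block, 0 without a trend in the prior variance and 0 with all 8 arrays, and 427 with each array at the same median.

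Subunits of complexes that acetylate histones and of Mediator were among the largest increases. EPC1, a subunit of the NuA4/TIP60 acetyltransferase complex, had a log2 signal of 11.29 in SP and 9.07 in MP of A549 and of 10.82 in SP and 8.69 in MP of H460. Both SP arrays were above both MP arrays, and the mean log2 ratio was 2.17 ± 0.057 (SD, n = 2 lines). A second EPC1 probe set of at least 8 had log2 ratios of 2.39 in A549 and 1.94 in H460. MSL2, the ubiquitin ligase of the MSL complex that acetylates histone H4, had 9.31 in SP and 7.17 in MP of A549 and 9.45 in SP and 7.24 in MP of H460. Its groups did not overlap either, with log2 ratios of 2.14 and 2.21 (limma adjusted p = 0.0626). MED26, a Mediator subunit that binds elongation factors, had 9.75 in SP and 8.30 in MP of A549 and 10.36 in SP and 8.73 in MP of H460. EPC2, the paralog of EPC1, had log2 ratios of 1.46 and 1.17 in A549 and H460. Of 22 measured subunits of at least 8 in the list of acetyltransferase and chromatin complexes, 13 were higher and 2 lower in both lines, with medians of 0.25 in A549 and 0.23 in H460, against -0.01 and -0.03 over all 9142 genes. Of all 9142 genes 26.8% were higher and 34.9% lower in both lines. Of the 22, 4 were at least 2-fold higher and 1 passed the limma test, beside 0.427% of the 9142 genes and 0.0246% of the 12209 fitted. The list was chosen with earlier results of these data known, so its counts are a description only. With each array at the same median 11 were higher and 5 lower. The catalytic subunits KAT5 of NuA4/TIP60 and KAT8 of MSL had smaller ratios. KAT5 had log2 ratios of 0.29 in A549 and -0.13 in H460, and KAT8 had -0.23 and -0.05. CREBBP, a separate acetyltransferase that acts on histone H3, had 0.64 and 0.46. KMT5B, a methyltransferase of histone H4, MIER3, a partner of histone deacetylases, and RESF1, a silencer of retroelements, were each at least 2-fold higher, with log2 ratios between 1.14 and 1.36 in the 2 lines. A second KMT5B probe set of at least 8 had 0.21 in A549 and 0.02 in H460.

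**Figure D2:**
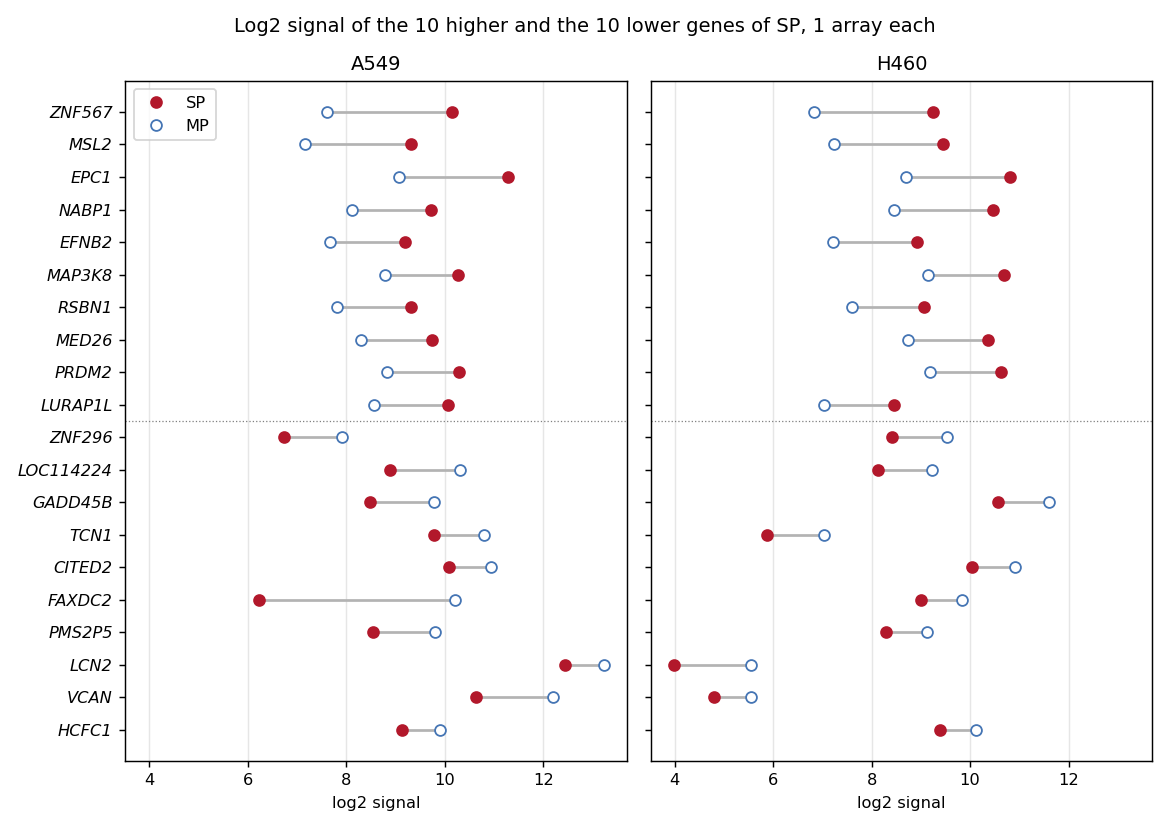
Log2 signal (horizontal axis) of the 10 genes most clearly higher and the 10 most clearly lower in SP, ranked by the smaller of the 2 ratios, with SP as filled and MP as open points and 1 array per point, A549 in the left and H460 in the right panel. EPC1 stands at 11.29 in SP and 9.07 in MP of A549, while LCN2 and VCAN lie under 6 on both H460 arrays.

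Zinc finger genes made up 9 of the 42 named 2-fold genes, 8 of them higher, in a grouping made after the values were seen. ZNF567 encodes a zinc finger protein of the KRAB family and had the largest smaller ratio of all genes, with 10.15 in SP and 7.61 in MP of A549 and 9.24 in SP and 6.82 in MP of H460. The groups did not overlap, and the mean log2 ratio was 2.49 ± 0.087 (SD, n = 2 lines). ZNF267 had 9.14 in SP and 7.74 in MP of A549 and 9.57 in SP and 8.01 in MP of H460. ZNF92 followed with 9.88 in SP and 8.65 in MP of A549 and 10.87 in SP and 9.23 in MP of H460. In each of these genes both SP arrays lay above both MP arrays. PRDM2, a zinc finger protein with a PR domain, had log2 ratios of 1.48 in A549 and 1.44 in H460, and ZNF12, ZNF394, ZBTB21 and RLF had ratios between 1.11 and 1.62 in the 2 lines. All 3 further probe sets of ZNF12 of at least 8 were also higher in both lines. The exception was ZNF296, with 6.73 in SP and 7.92 in MP of A549 and 8.41 in SP and 9.54 in MP of H460. Of 169 genes with a ZNF symbol, 96 were higher and 30 lower in both lines, with medians of 0.26 in A549 and 0.15 in H460. At least 2-fold were 5 higher and 1 lower, beside 0.427% and 0.0438% of all 9142 genes. Of 16 genes in the zinc finger list, 10 were higher and 1 lower in both lines, and with each array at the same median 8 were higher and 1 lower. Many such genes share sequence, so that the signal of a probe set can come from a relative.

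Activators and inhibitors of kinase signalling were both among the higher genes. MAP3K8, a kinase that activates MEK, had 10.27 in SP and 8.78 in MP of A549 and 10.68 in SP and 9.14 in MP of H460. Its groups did not overlap, although a second probe set of at least 8 had log2 ratios of only 0.52 in A549 and 0.26 in H460. PPM1D, a phosphatase that p53 induces and that restrains the damage response, had 10.92 in SP and 8.77 in MP of A549 and 10.89 in SP and 9.49 in MP of H460. DUSP10, a phosphatase of the stress kinases p38 and JNK, had 9.45 in SP and 8.24 in MP of A549 and 8.32 in SP and 6.84 in MP of H460. The SP arrays were above the MP arrays for both phosphatases. EFNB2, the transmembrane ligand ephrin-B2, had log2 ratios of 1.52 in A549 and 1.71 in H460 (limma adjusted p = 0.0639). Among targets and feedback genes of ERK, 9 of 17 were higher and 2 lower in both lines, with medians of 0.17 in A549 and 0.09 in H460. With each array at the same median 5 of the 17 were higher and 2 lower. PHLDA1 had log2 ratios of 0.61 and 0.83, the ERK phosphatase DUSP5 had 0.48 and 0.60, and the inhibitor SPRED2 had 0.68 and 0.39 in A549 and H460. Other members split between the lines. SPRY2, a feedback inhibitor of receptor kinases, had 10.38 in SP and 9.59 in MP of A549 but 9.58 in SP and 10.47 in MP of H460, and the ERK phosphatase DUSP6 had log2 ratios of 0.41 in A549 and -0.43 in H460. Among stress phosphatases and GADD45 genes 5 of 8 were higher and 3 lower. Of these GADD45A had log2 ratios of 0.27 and 0.72, whereas its relative GADD45B was among the lowest genes of SP.

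Of the 2-fold genes, 6 besides MSL2 act in the ubiquitin system. They were grouped after their values were seen, and all were higher, as were 39 of the 43 genes (90.7%). KLHL15, an adaptor of CUL3 ligases, had 11.36 in SP and 9.86 in MP of A549 and 11.60 in SP and 10.26 in MP of H460. Both SP arrays were above both MP arrays, and its mean log2 ratio was 1.42 ± 0.12 (SD, n = 2 lines). The deubiquitinase USP42 had log2 ratios of 1.45 in A549 and 1.29 in H460. UBE2O, ASB7, CCNF and FBXO30 had ratios between 1.03 and 1.72 in the 2 lines, and CCNF encodes the F-box protein cyclin F, which is made in G2. NABP1 and INTS6 encode partners in a complex that binds single-stranded DNA. NABP1 had 9.73 in SP and 8.12 in MP of A549 and 10.47 in SP and 8.45 in MP of H460, and a second probe set of it had log2 ratios of 1.81 and 1.79. INTS6 had 9.61 in SP and 8.30 in MP of A549 and 11.21 in SP and 9.82 in MP of H460. Its SP array of A549 lay below the MP array of H460, so INTS6 differed within each line without separating the groups. TIPARP, an ADP-ribosyltransferase induced by the aryl hydrocarbon receptor, had 11.53 in SP and 10.26 in MP of A549 and 11.83 in SP and 8.80 in MP of H460. The log2 ratio of 3.02 was the highest in H460 among the 42 named genes and the ratio in A549 was 1.27 (limma adjusted p = 0.107). GATA6, which regulates genes of lung epithelium, had 10.57 in SP and 9.17 in MP of A549 and 7.38 in SP and 5.88 in MP of H460, and its groups overlapped because the lines differ in level.

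Few genes were lower in SP by as much. GADD45B, a stress sensor that activates p38 signalling, had 8.49 in SP and 9.78 in MP of A549 and 10.57 in SP and 11.60 in MP of H460. Both other GADD45B probe sets of at least 8 were lower in both lines, with log2 ratios of -0.73 and -0.96 in A549 and of -0.89 and -1.51 in H460. LOC114224, which has no described role in the tables used here, had 8.88 in SP and 10.32 in MP of A549 and 8.13 in SP and 9.23 in MP of H460, and it was the only one of the 4 genes whose SP arrays both lay below both MP arrays. TCN1, which binds vitamin B12, had 9.79 in SP and 10.79 in MP of A549 but only 5.88 in SP and 7.03 in MP of H460. CITED2, an inhibitor of hypoxia-inducible factor, was close to 2-fold, with 10.08 in SP and 10.94 in MP of A549 and 10.03 in SP and 10.92 in MP of H460, and its groups did not overlap (limma adjusted p = 0.0639). HCFC1, a coregulator of transcription that docks on promoters, had log2 ratios of -0.79 and -0.74. LCN2, which binds iron-laden siderophores, and VCAN, a matrix proteoglycan, were bright in A549, where LCN2 had 12.45 in SP and 13.24 in MP and VCAN 10.63 in SP and 12.20 in MP. Both were under 6 on the H460 arrays. FAXDC2 had the largest ratio of any of these, -3.99 in A549, against -0.84 in H460. PMS2P5 is a pseudogene of a mismatch repair family, so its ratios of -1.25 and -0.83 are uncertain. The matrix proteins CCN1 and CCN2 were lower as well. CCN1 had 10.72 in SP and 11.86 in MP of A549 and 9.50 in SP and 10.24 in MP of H460, and CCN2 had log2 ratios of -0.46 and -1.37. Of 17 immediate early genes 7 were lower and 2 higher in both lines (34.9% and 26.8% of all 9142 genes were), 8 differed in direction, and the medians were -0.22 in A549 and 0.16 in H460.

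Genes of chromosome segregation were higher in SP of both lines in most cases, by less than 2-fold on average. Of 57 genes in the 3 lists (condensin and chromosome structure, chromosomal passenger and mitotic kinase genes, kinetochore and spindle) 48 were higher and 0 lower in both lines, beside 26.8% higher and 34.9% lower among all 9142 genes. The medians were 0.37 in A549 and 0.29 in H460. Both SP arrays lay above both MP arrays for 28 of the 57 genes and below for 0, beside 9.9% and 8.44% of all 9142 genes. Limma gave an unadjusted p under 0.05 for 39, beside 13.8% of all 9142 genes, and a lowest adjusted p of 0.0814. With each array at the same median 44 were higher and 1 lower, and with quantile normalization 48 were higher and 0 lower. In bulk RNA, more cells in a phase and more RNA per cell cannot be told apart, and the lists hold genes the study itself named from these arrays.

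The promoters of this group are shown because a short motif recurs in them. The cell cycle genes homology region (CHR, letters TTTGAA) is bound by complexes that repress mitotic genes in resting cells and activate them before mitosis, and the CCAAT box often stands next to it. Either strand of TTTGAA stood in the window of 250 bases before to 50 after the start in 34 of the 49 genes of these lists with a promoter in the RefSeq table (69.4%), against 1066 of 7665 genes of at least 8 (13.9%) and 18.2% of all genes in that table. It stood in 1 of 25 genes of the DNA replication list (4.0%) and in 7 of 32 genes at least 2-fold higher in both lines (21.9%). Either strand of CCAAT stood in 37 of the 49 (75.5%), in 44.2% of genes of at least 8, in 15 of the 25 replication genes (60.0%) and in 18 of the 32 genes at least 2-fold higher (56.2%). The 4 promoters printed here belong to the genes of these lists with the largest smaller ratios that hold TTTGAA or its complement before the start. They are RefSeq sequence of GRCh38.p14, 250 bases up to the start, with capitals on TTTGAA or TTCAAA and on CCAAT or ATTGG. KIF11 lies at chr10:92592880-92593129 on the plus strand, TOP2A at chr17:40417897-40418146 on the minus strand, KIF23 at chr15:69414099-69414348 on the plus strand and NCAPG at chr4:17810729-17810978 on the plus strand.
KIF11: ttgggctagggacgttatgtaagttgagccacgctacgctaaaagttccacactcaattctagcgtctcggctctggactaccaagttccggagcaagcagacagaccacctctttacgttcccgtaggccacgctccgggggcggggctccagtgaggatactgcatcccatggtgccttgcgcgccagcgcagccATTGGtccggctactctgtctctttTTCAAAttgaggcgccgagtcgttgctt
TOP2A: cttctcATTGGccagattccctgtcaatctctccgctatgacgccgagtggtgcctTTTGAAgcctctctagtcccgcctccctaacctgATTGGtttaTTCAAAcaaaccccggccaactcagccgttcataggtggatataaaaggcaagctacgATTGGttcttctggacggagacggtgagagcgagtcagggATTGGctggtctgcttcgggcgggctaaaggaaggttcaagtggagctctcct
KIF23: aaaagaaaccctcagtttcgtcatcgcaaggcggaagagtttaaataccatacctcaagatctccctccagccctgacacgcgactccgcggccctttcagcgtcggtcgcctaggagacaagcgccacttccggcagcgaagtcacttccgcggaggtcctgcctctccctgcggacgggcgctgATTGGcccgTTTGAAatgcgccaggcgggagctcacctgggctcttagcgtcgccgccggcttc
NCAPG: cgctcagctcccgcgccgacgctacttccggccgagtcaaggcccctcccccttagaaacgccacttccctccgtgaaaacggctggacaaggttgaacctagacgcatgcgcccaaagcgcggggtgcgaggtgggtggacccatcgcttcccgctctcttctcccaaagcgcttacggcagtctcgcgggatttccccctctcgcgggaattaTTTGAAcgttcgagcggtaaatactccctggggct
KIF11, TOP2A and KIF23 hold both motifs in these bases and NCAPG holds the CHR letters alone. In KIF11, KIF23 and NCAPG the CHR letters begin at -28, -55 and -35 from the start, while TOP2A has a pair at -194 and -151. A match of letters is a description of the window and was not tested as a site.

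**Figure D3:**
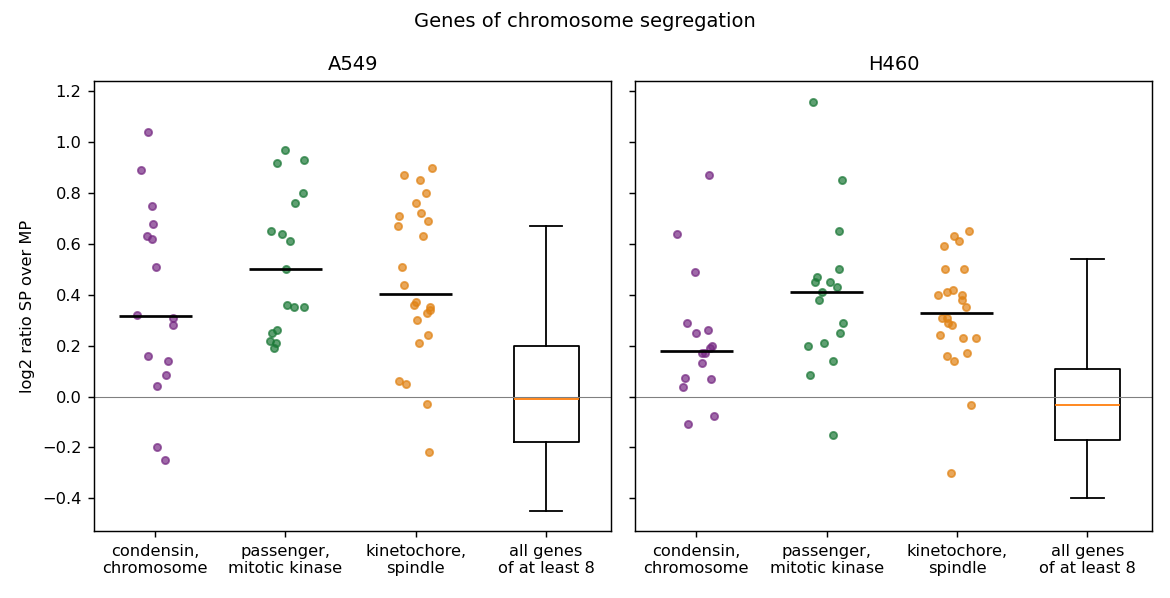
Log2 ratio of SP over MP (vertical axis) of each gene of at least 8 in the 3 lists of chromosome segregation, with the median as a black line, beside a box of all genes of at least 8 (median, quartiles and whiskers from the 5th to the 95th percentile), A549 left and H460 right. The medians of the passenger and mitotic kinase list are 0.50 in A549 and 0.41 in H460.

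In the list of chromosomal passenger and mitotic kinase genes, which also holds cyclins and CDC25 phosphatases, 16 of 17 were higher in both lines. TTK, a kinase of the spindle checkpoint, had 10.31 in SP and 9.34 in MP of A549 and 10.32 in SP and 9.47 in MP of H460. PLK4, which starts centriole duplication, had 9.90 in SP and 8.98 in MP of A549 and 9.49 in SP and 8.84 in MP of H460. Both SP arrays were above both MP arrays in each, and TTK came closest to the threshold of these genes (limma adjusted p = 0.0814). AURKB, the passenger kinase that corrects spindle attachments, had log2 ratios of 0.64 and 0.45, and CDK1, the main driver of mitotic entry, had 0.36 and 0.45. WEE1, which holds CDK1 inactive, had 0.50 in A549 and 1.16 in H460, so that activator and inhibitor were higher together. CDCA8, a passenger subunit that is no kinase, was the member of mixed direction, with 0.21 and -0.15. Of 16 genes in the condensin and chromosome structure list, which holds cohesin and topoisomerase genes, KIF4A and MKI67 as well, 12 were higher and 0 lower. NCAPH, the kleisin subunit of condensin I, had 9.36 in SP and 8.32 in MP of A549 and 9.66 in SP and 9.02 in MP of H460. TOP2A, which untangles sister chromatids, had 12.44 in SP and 11.82 in MP of A549 and 12.02 in SP and 11.15 in MP of H460 (limma adjusted p = 0.0818). The subunits of the complexes differed. NCAPG of condensin I had 0.89 and 0.49 and SMC4, which condensins I and II share, had 0.14 and 0.17. The cohesin subunits SMC3 and RAD21 had -0.25 and -0.20 in A549 against 0.13 and 0.26 in H460. Of the other cohesin subunits SMC1A had 0.32 and 0.071, STAG2 had 0.086 and 0.039 and STAG1 had 0.16 and -0.078. TOP2B, the topoisomerase that resting cells also make, had 0.04 and -0.11. Of 24 kinetochore and spindle genes 20 were higher and 0 lower. The motor KIF11, which separates the spindle poles, had 11.36 in SP and 10.56 in MP of A549 and 11.23 in SP and 10.58 in MP of H460. KIF23, a motor of the central spindle, had log2 ratios of 0.69 and 0.61, and CENPE, a motor at the kinetochore, had 0.85 and 0.59. KIF20A had 0.51 in A549 but -0.30 in H460. CDCA2, which brings a phosphatase to chromosomes as cells leave mitosis, and CENPL, a centromere protein, stood outside these lists and were at least 2-fold higher, with 10.66 in SP and 8.57 in MP of A549 and 9.48 in SP and 8.18 in MP of H460 for CDCA2.

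DNA replication was less uniform than mitosis. Of 26 genes 16 were higher and 4 lower in both lines, with medians of 0.16 in A549 and 0.03 in H460, and with each array at the same median 6 were higher and 5 lower. CDT1 and CDC6, which load the replicative helicase, had log2 ratios of 0.57 and 0.54 for CDT1 and of 0.30 and 0.46 for CDC6. MCM2, MCM3, MCM5, MCM6 and MCM7, subunits of that helicase, had ratios between -0.20 and 0.16 in the 2 lines. In a list of histone genes that includes replication-independent ones, 0 of 8 were higher and 5 lower in both lines. Of all 9142 genes 26.8% were higher and 34.9% lower. The list medians were -0.29 in A549 and -0.22 in H460. The count of 5 also held under quantile normalization and with each array at the same median. H2BC9 and H2BC5 had -0.59 and -0.33, and -0.31 and -0.37. Histone genes share sequence, so single members are uncertain.

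**Figure D4:**
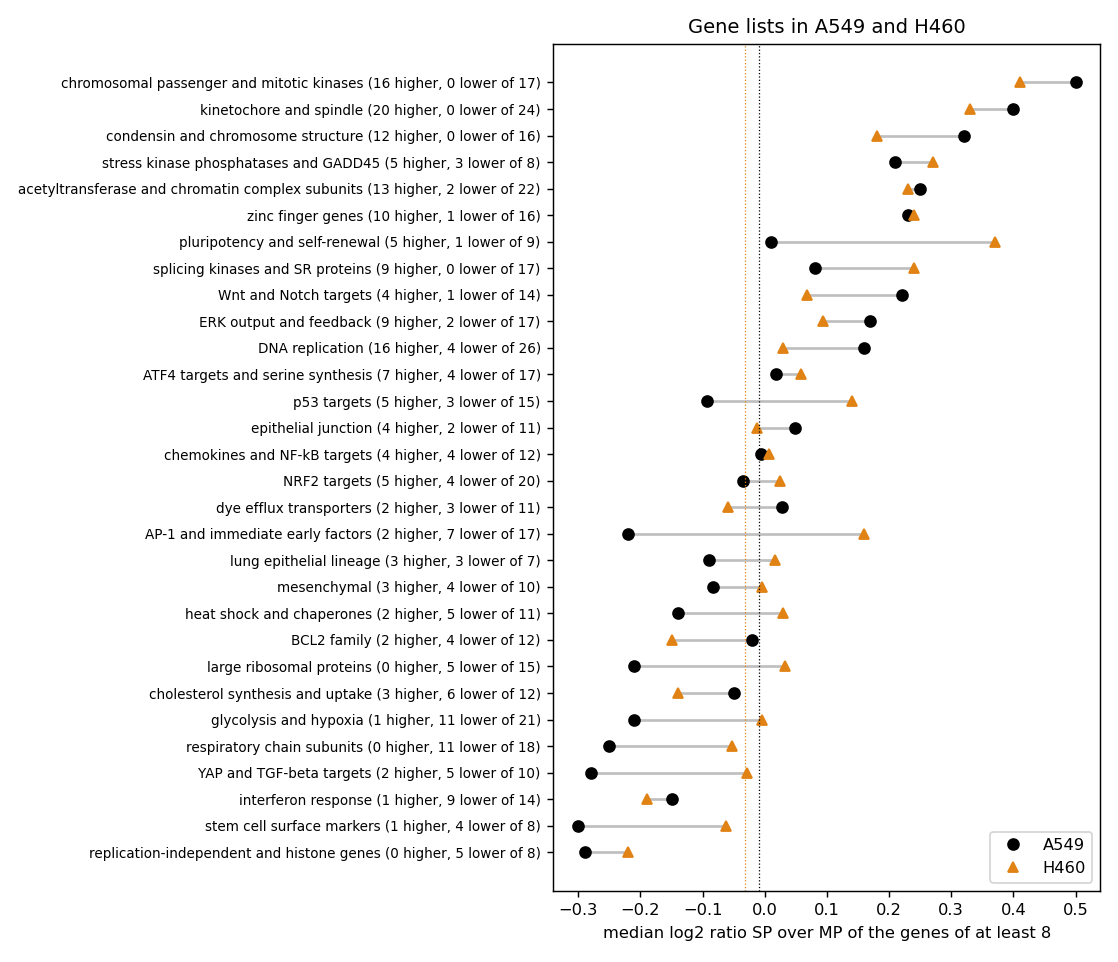
Median log2 ratio of SP over MP (horizontal axis) of each list with at least 5 genes of at least 8, in A549 (circles) and H460 (triangles), with the number of genes higher and lower in both lines beside each name. Dotted lines mark the medians of all 9142 genes, -0.01 in A549 and -0.03 in H460, and the 3 lists of chromosome segregation stand at the top.

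Energy metabolism and interferon genes leaned lower in SP, by small ratios. Of 18 respiratory chain subunits 11 were lower and 0 higher in both lines, with medians of -0.25 in A549 and -0.05 in H460. Of 21 glycolysis and hypoxia genes 11 were lower and 1 higher, with medians of -0.21 in A549 and -0.00 in H460. These shifts lay mainly in A549, and their size depended on the scaling. For the respiratory chain in A549 the median was -0.09 with quantile normalization and -0.40 with each array at the same median, and 14 and 16 of the 18 subunits were lower in both lines. ADM, which encodes the vasodilator adrenomedullin and responds to hypoxia, had 10.97 in SP and 11.50 in MP of A549 and 11.23 in SP and 12.48 in MP of H460. SLC2A1, the glucose transporter GLUT1, was the member higher in both lines, with log2 ratios of 0.32 and 0.30. Of 14 interferon response genes 9 were lower and 1 higher, with medians of -0.15 in A549 and -0.19 in H460. ISG15, a ubiquitin-like modifier, had 9.69 in SP and 10.31 in MP of A549 and 8.45 in SP and 9.04 in MP of H460, and IRF9 was the member higher in both lines, with 0.09 and 0.21. After adjustment limma called none of the genes in these lists, beside 3 higher (0.0246%) and 0 lower of all 12209 genes fitted. The ribosomal protein genes gave 5 lower of 15, a share near the 34.9% of all genes, and 0 higher, with medians of -0.21 in A549 and 0.03 in H460.

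Lists tied to the stem cell reading of the assay gave a mixed record. Among 11 dye efflux transporters of at least 8, 2 were higher and 3 lower in both lines, and ABCG2 had the highest ratios. Of all 9142 genes 26.8% were higher and 34.9% lower in both lines. The counts of the transporters, and of the NRF2 targets given below, were not above these shares. ABCB6, a porphyrin transporter, had -0.12 in A549 and -0.21 in H460. Of 8 stem cell surface markers 1 was higher and 4 lower. The integrin subunit ITGB4 had -0.49 and -0.34. The receptor kinase MET had -0.36 and -0.15. Of 9 pluripotency and self-renewal genes 5 were higher and 1 lower, and the 3 with the largest smaller ratios were EED, EZH2 and SUZ12, the core of the Polycomb complex PRC2. EED had 11.77 in SP and 11.25 in MP of A549 and 11.01 in SP and 10.41 in MP of H460, and EZH2 had log2 ratios of 0.42 and 0.41. The splicing kinases CLK1 and CLK4 had ratios between 0.69 and 0.78 in both lines, and of 17 splicing kinases and SR proteins 9 were higher and 0 lower. With each array at the same median 5 of them were higher and 2 lower. HMOX1, a target of NRF2 that degrades haem, had 11.85 in SP and 11.46 in MP of A549 and 12.37 in SP and 10.10 in MP of H460, so its log2 ratio was 0.39 in A549 and 2.27 in H460, while of 20 NRF2 targets 5 were higher and 4 lower. The chemokine CXCL2 had log2 ratios of 0.88 and 1.60, whereas the related chemokine CXCL3 had -0.33 and -0.29. Among apoptosis regulators BCL2L11, which encodes BIM, had 0.71 and 1.11, and PMAIP1, which encodes NOXA, had -0.54 and -0.42. SKIL, a feedback repressor of TGF-beta signalling, had 0.98 and 1.39. In both lines 2 of 10 YAP and TGF-beta targets were higher and 5 lower. For the BCL2 family these counts were 2 and 4 of 12, and for chemokines and NF-kB targets 4 and 4 of 12.

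The lines differed for some genes beyond the common set. TXNIP, an inhibitor of thioredoxin and of glucose uptake, had 7.33 in SP and 8.21 in MP of A549 but 11.26 in SP and 10.00 in MP of H460. USH1C, a scaffold protein with PDZ domains, had 7.19 in SP and 9.27 in MP of A549 and 9.40 in SP and 8.77 in MP of H460. Directions were opposite between the lines in both genes. FZD4, a receptor of Wnt ligands, KLHDC4 and TCIM had log2 ratios of 0.61, 0.61 and 0.81 in A549 and of -0.65, -0.66 and -0.60 in H460. NR2F6, a nuclear receptor, and CPEB2, which controls translation, had -0.76 and -0.58 in A549 and 0.59 and 0.62 in H460. With 1 pair of arrays per line, the difference between the lines was not tested. At the signal limit PUS7L and SECTM1 had mean log2 signals of 8.0003 and 8.0007 just inside, and CDK20 and ABTB2 had 7.9988 and 7.9985 just outside.

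The EGFR mutant lines, which the selection did not use, gave opposite pictures. Of the 39 genes at least 2-fold higher in SP of A549 and H460, 33 were higher in H1975 (84.6%, against 47.1% of the 9142 genes) and 11 of these were at least 2-fold higher, with a median log2 ratio of 0.62. In H1650 38 of the 39 were lower (97.4%, against 50.6%), 16 of them at least 2-fold, and the median was -0.88. Of the 4 lower genes 3 were lower in H1975 and 4 were higher in H1650. EPC1 had log2 ratios of 1.57 in H1975 and -1.56 in H1650, and KLHL15 had 2.12 and -1.38. ZNF567 and NABP1 had the smaller ratios of 0.52 and 0.25 in H1975 and of -1.09 and -0.45 in H1650. The 57 genes of chromosome segregation went the same way, with medians of 0.73 in H1975 and -0.52 in H1650. In H1650 ABCG2 itself had the lower signal on the array labelled SP, with a log2 ratio of -0.70, and directions in that line rest on the labels as deposited. KMT5B, ASB7, KCNE4, CREBRF and ANKRD33B were lower in H1975 SP, with log2 ratios between -0.74 and -0.06. KCNE4, which gave the -0.74, had a log2 signal of only 4.56 in SP and 5.29 in MP of H1975. The test of the difference between the K-Ras and the EGFR mutant lines over all 8 arrays called 0 of 12209 genes by limma after adjustment, and 617 had an unadjusted p under 0.05. That test averages H1975 with H1650. Without H1650 limma called 9 genes (4 higher and 5 lower in A549 and H460 than in H1975), none of them among the 43, with the lone EGFR line assumed to vary like the others. With the SP and MP labels of H1650 exchanged it called 0, and 742 had an unadjusted p under 0.05. Both alternatives were chosen after seeing the data.

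**Figure D5:**
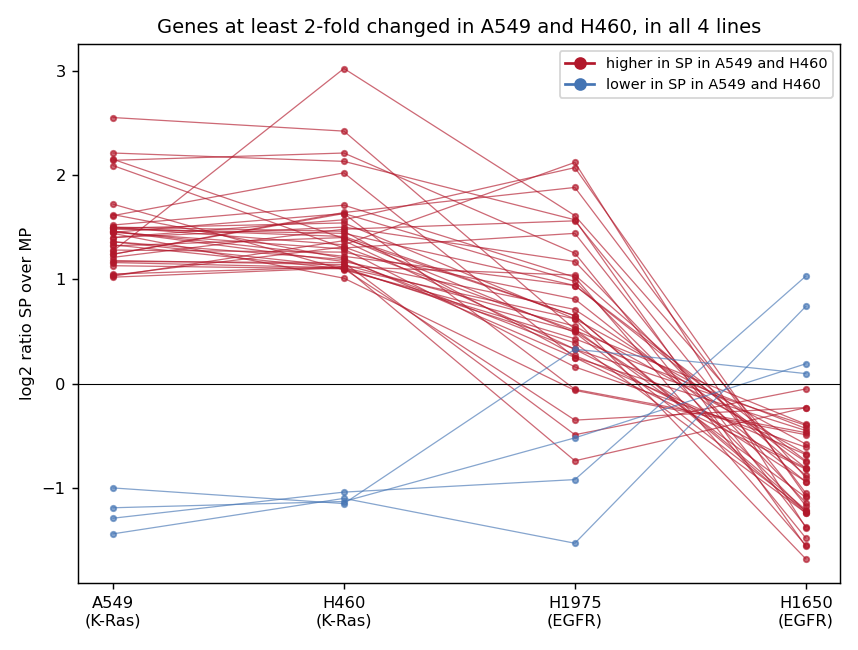
Log2 ratio of SP over MP (vertical axis) in the 4 lines for 42 of the 43 genes past 2-fold with a shared direction in A549 and H460, drawn as 1 trace per gene. The genes higher in A549 and H460 lie mostly above 0 in H1975, with a median of 0.62, and below 0 in H1650, with a median of -0.88.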

How the data were processed

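RNA of sorted SP and MP cells was hybridised to Affymetrix Human Genome U133 Plus 2.0 arrays, 1 per population and line. The deposited values are log2 signals that the authors made with MAS5 (GCOS 1.4, as in the submitters' processing notes). Each array had been scaled to a linear trimmed mean of 500.1, and the mean centring the methods describe is not part of the values. The cell line pairs SP with MP by design. Of 54675 probe sets, 41097 had 1 gene symbol in the platform annotation, 1801 several and 11777 none, and the RefSeq gene table changed 0 symbols. The probe set with the highest mean over the 4 arrays stood for a gene. Ratios are log2 SP minus log2 MP. limma 3.58.1 in R 4.3.3 (lmFit, eBayes with trend, line as block) was fitted to the 12209 genes at or above the median of 6.00, with Benjamini-Hochberg adjustment. The script was tested on simulated data. Precision is limited by having so few arrays, and detection calls were not used here.

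Named genes were the 10 higher and 10 lower genes by the smaller of their 2 ratios, up to 3 per list by that measure, genes called by limma, genes the study names, and 4 genes of opposite direction each way. Other genes at least 2-fold changed, other list members and the grouping by role were chosen after their values were seen. The members and lists were chosen with earlier results of these data known. Genes of the Y chromosome were counted but are not named or plotted. Alternatives were a linear floor of 32, a linear pseudocount of 16, quantile normalization, the same median on each array, the mean of probe sets, other limits on signal, fold and adjusted p, and other fits. Leaving out H1650 and exchanging its SP and MP labels were chosen after seeing the data.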

Additional observations from a re-analysis of the deposited data

Results flagged for a closer look

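In 20 named genes SP over MP had one direction in both A549 and H460 and the other in both H1975 and H1650. The values below are the mean log2 ratio of A549 and H460 minus that of H1975 and H1650, the difference was not called for any of them by limma after adjustment (0 of 12209 genes), and directions in H1650 rest on labels whose ABCG2 ratio is -0.70. Among genes higher in SP of A549 and H460 the difference was 2.60 for AXIN2, a target and inhibitor of Wnt signalling, 2.27 for CXCL2, 0.74 for SESN1 and 0.73 for MDM2, both targets of p53, 0.66 for CDH2, 0.54 for COL1A1 and 0.37 for CLK2. It was 1.70 for CREBRF, 1.43 for KMT5B, 1.51 for ASB7, 1.57 for KCNE4 and 1.5 for ANKRD33B, which are among the genes at least 2-fold higher in SP of A549 and H460. Among genes lower in SP of A549 and H460 it was -2.77 for FAXDC2, -1.29 for TCN1, -1.14 for CCN2, -0.68 for PMAIP1, -0.53 for ITGB4, -0.45 for H2BC21, -0.19 for HSPB1 and -0.18 for RPL27. The signal limit of 8 used the A549 and H460 arrays alone, and some of these genes were dim in the other lines. AXIN2 had 5.37 in SP and 6.30 in MP of H1975, and 2.16 in SP and 5.09 in MP of H1650. Its log2 ratio in H460 was only 0.17. On the H1975 and H1650 arrays CDH2 lay between 3.45 and 4.09 and KCNE4 between 4.21 and 5.29. Ratios at such signals are uncertain.

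The count depends on H1650. Without H1650, 27 of the named genes had the opposite direction in H1975, the 20 included. With the SP and MP labels of H1650 exchanged 7 genes met the condition and 0 of the 20 did. The 20 were picked by their direction in H1650, so their place in both counts was fixed by the definition and supports nothing further. Against H1975 alone the differences of the 20 genes ran between 0.33 and 1.82 for the higher and between -3.03 and -0.17 for the lower ones. Leaving out H1650 and exchanging its labels were chosen after seeing the data.

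In 8 genes SP over MP had opposite directions in A549 and H460. The log2 ratio of A549 minus that of H460 was 1.69 for SPRY2, 1.41 for TCIM, 1.27 for KLHDC4 and 1.26 for FZD4, and it was -2.71 for USH1C, -2.15 for TXNIP, -1.35 for NR2F6 and -1.20 for CPEB2. These differences rest on 1 pair of arrays per line and were not tested.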

How the results depend on the processing

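Against 3 genes called by limma, there were 48 with a floor of 32, 46 with a pseudocount of 16, 131 with quantile normalization, 427 with each array at the same median, 86 with the mean of all probe sets, 6 with every gene, 67 with the fit on genes of at least 8 alone and 120 at an adjusted p under 0.1. The 3 genes were among the calls of each of these. Without the replicate block, which here is the cell line, limma called 0 genes (110 at an unadjusted p under 0.05), without the trend 0 (1275) and with all 8 arrays 0 (794). EPC1 kept its direction under the changes to the values, and the other fits could not change it. Its adjusted p from limma ranged between 2.83e-09 and 1. The causes were not tested.

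Against 43 genes past 2-fold with a shared direction, there were 21 at a signal of at least 9, 666 with every gene, 236 at 1.5-fold, 4 at 3-fold and 96 on the mean of both lines. With every gene 57.1% of the 666 were higher in SP, against 90.7% of the 43. The 5638 genes with 1 direction became 11098 of all genes. RPL32 changed sign, to 0.02 with quantile normalization, and was -0.05 as deposited. Of the 110 named genes with a tested ratio no other changed sign with the floor, pseudocount, quantile, same median or probe set mean. The other fits leave the mean ratio as it is. Leaving out a line could not turn a sign either, since these genes have 1 direction in both lines. The median of the lists was moved by over the spread between the lines in 47 of 217 cases, 16 with each array at the same median and 21 without A549 or without H460. Leaving out a line left the ratio of the other line, with no test, between 2.13 and 2.21 for EPC1, between 2.42 and 2.55 for ZNF567 and between 1.33 and 1.5 for KLHL15. The difference between the K-Ras and the EGFR mutant lines, with 0 genes called by limma (617 at an unadjusted p under 0.05), had 9 called without H1650.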
